A study of Mus musculus with 1536 samples.

Results

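The genes described here act in the handling of glutamate by a neuron. Slc17a8, Slc17a6 and Slc17a7 encode the vesicular glutamate transporters Vglut3, Vglut2 and Vglut1. Glud1 and Slc38a1 act in glutamate supply. Slc1a1 and Slc1a2 encode transporters that take glutamate up from outside the cell. These 7 members were chosen by name, and all were among the 53263 genes of the table, which holds 999 single serotonin neurons. The cells came from C57BL/6J mice aged 40 to 45 days that carried Sert-Cre and the Ai14 reporter. Cre is driven by the serotonin transporter gene and switches on red fluorescence, by which cells were sorted, so the sort takes any cell that has ever made Cre. No mouse was treated, and all cells share the Cre driver and the reporter. The principal DR dissection (dorsal raphe without its caudal part) gave 290 cells on 5 plates, and the all DR dissection, which per the series text took in the whole dorsal and median raphe, gave 709 cells on 11 plates. Each cell was made into 1 Smart-seq2 library, a full-length cDNA method without molecular identifiers, and each value is in CPM, the count of a gene scaled by the total of reads on genes in that cell.

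The labels name no animal, so each dissection counted as 1 sample and no test between dissections, clusters or cells was possible; values are given with the spread over plates, and 95% exact Clopper-Pearson intervals cover counting error only. Reads on genes per cell ranged from 96834 to 2780443 with a median of 827283, so that 1 read in the median cell is worth little more than 1 CPM. All 8 serotonin neuron markers were detected in most cells of each of the 12 clusters described below, and Tph2, the enzyme that starts serotonin synthesis, had a read in all 350 cells without Slc17a8 and in all 649 cells with it. The summed level of the 8 markers was nevertheless as low as 41.4 CPM in 1 cell without Slc17a8, against at least 3010 CPM in the 592 cells with 10 CPM or more of it.

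A neuron can release glutamate from vesicles only if a vesicular glutamate transporter loads them. Vglut1 and Vglut2 mark the classical glutamatergic neurons of cortex and of subcortical brain, whereas Vglut3 is known from neurons that mainly use another transmitter, the serotonin neurons of the raphe among them. Glutamate itself is made from glutamine, which system A carriers such as the product of Slc38a1 bring in, and is linked to the citric acid cycle by glutamate dehydrogenase, the product of Glud1. Released glutamate is cleared mostly by astrocytes through the product of Slc1a2 (GLT-1), while the product of Slc1a1 (EAAC1) is the common uptake carrier of neurons.

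The bases just before a RefSeq transcription start are shown for the vesicular transporter that was expressed, for the 2 relatives that were nearly or fully absent, and for Slc1a2, the member whose level moved most with Slc17a8. They come from RefSeq on the GRCm38.p6 build, which held starts for 6 of the 7 members, and each run is the 250 bases upstream of the gene's most 5′ listed start, written 5′ to 3′ on the gene's own strand with every CG dinucleotide in capitals. Slc17a8 lies on the minus strand (chr10:89621250-89621499), and Slc17a6 (chr7:51621580-51621829), Slc17a7 (chr7:45163671-45163920) and Slc1a2 (chr2:102706188-102706437) lie on the plus strand. The Slc1a2 run precedes the RefSeq start and lies inside the longer GENCODE M21 gene, which begins upstream at base 102658659, so it is not the sequence before that outermost start.
Slc17a8: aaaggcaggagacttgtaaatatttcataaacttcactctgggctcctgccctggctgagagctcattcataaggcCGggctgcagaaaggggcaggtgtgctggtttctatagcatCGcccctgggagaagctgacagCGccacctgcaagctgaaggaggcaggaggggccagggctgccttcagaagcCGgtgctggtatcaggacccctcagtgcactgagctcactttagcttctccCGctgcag
Slc17a6: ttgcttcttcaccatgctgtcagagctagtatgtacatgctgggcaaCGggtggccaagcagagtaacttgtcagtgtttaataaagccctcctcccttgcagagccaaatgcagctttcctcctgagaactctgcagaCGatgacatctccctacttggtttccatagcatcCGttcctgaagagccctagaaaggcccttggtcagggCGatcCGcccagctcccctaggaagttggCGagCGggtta
Slc17a7: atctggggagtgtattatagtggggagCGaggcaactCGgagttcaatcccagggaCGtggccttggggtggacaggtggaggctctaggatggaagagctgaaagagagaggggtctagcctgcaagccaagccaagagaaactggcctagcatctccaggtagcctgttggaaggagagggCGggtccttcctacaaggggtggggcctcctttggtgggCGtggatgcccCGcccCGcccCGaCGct
Slc1a2: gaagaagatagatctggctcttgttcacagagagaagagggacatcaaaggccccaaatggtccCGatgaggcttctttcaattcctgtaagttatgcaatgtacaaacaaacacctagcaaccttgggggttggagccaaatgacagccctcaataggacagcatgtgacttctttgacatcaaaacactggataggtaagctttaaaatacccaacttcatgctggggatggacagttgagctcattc
The Slc17a8 run held 5 CG, the Slc17a6 run 7 and the Slc17a7 run 9, against a median of 6 over the 32851 RefSeq promoter windows of the same length. The expressed and the unexpressed transporter genes thus had counts near that median. The Slc1a2 run, before its internal start, held 1 CG, a count that 18.8% of windows matched or fell under. The letters TATAAA stood on neither strand of the 4 runs and in 12.4% of all windows. The ETS factor core CGGAAG was likewise absent from the 4 runs and present in 13.6% of windows. The homeodomain core TAATTA was also absent from them and present in 4.84%.

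Slc17a8 was present in most cells, and its level was graded rather than uniform. The gene lies at chr10:89574020-89621253 in GRCm38 with 4720 exonic bases in GENCODE M21. At least 1 read was found in 649 of 999 cells, 65.0% (interval 61.9 to 67.9), and cells with a read held a median of 76 reads of it, with only 10 cells at a single read. Among these 649 cells the level ran from 0.792 to 836 CPM with a median of 94.5, and the 90th percentile of 351 CPM was 31.0 times the 10th percentile of 11.3 CPM. No gap split them: 57 cells held reads under 10 CPM, 114 lay from 10 to 30 CPM, 164 from 30 to 100, 209 from 100 to 300 and 105 at 300 or more. The other 350 cells held no read.

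The share of cells with Slc17a8 was higher on all DR plates than on principal DR plates, whereas the mean levels of the plates overlapped. In principal DR 131 of 290 cells held a read, 45.2% (39.3 to 51.1), and the 5 plates had 43.0%, 41.2%, 55.8%, 39.3% and 51.2%. In all DR 518 of 709 cells held one, 73.1% (69.6 to 76.3), and the 11 plates ran from 63.0% to 83.3% with a median of 74.0%, so every all DR plate lay above every principal DR plate. The plate means overlapped: they were 70.9, 51.2, 127, 132 and 110 CPM in principal DR, a mean of 98.1 ± 35.5 CPM (SD, n = 5 plates), and ran from 51.9 to 145 CPM with a median of 96.2 in all DR, a mean of 97.6 ± 23.6 CPM (SD, n = 11 plates). Over cells the mean was 84.8 CPM in principal DR and 99.7 CPM in all DR, a difference of 14.9 CPM that fell to 0.932 CPM without plate SER13, to 8.29 without SER12 and to 9.30 without SER52, and turned to -0.557 CPM when plates were weighted equally. The upper end of the range was filled alike, with 31 of 290 principal DR cells, 10.7%, and 74 of 709 all DR cells, 10.4%, at 300 CPM or more.

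**Figure D1:**
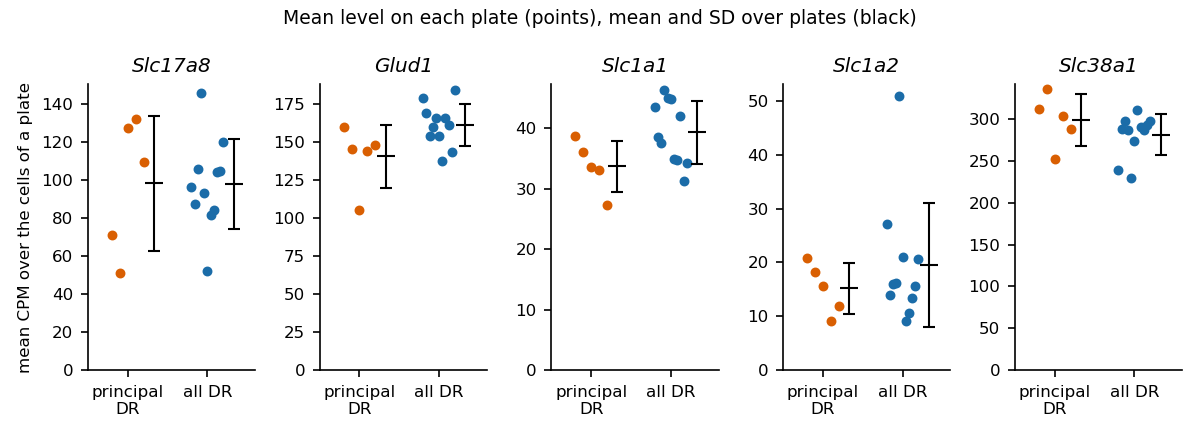
Mean CPM of each detected member over the cells of each plate, by dissection; points are the 5 principal DR and 11 all DR plates, and black marks give their mean and SD. The plate means of the 2 dissections overlap for all 5 genes, and 1 all DR plate stands at 51.0 CPM of Slc1a2.

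To see where the gradation lies, cells were grouped into 12 clusters by other genes, with every gene of the lists used here held out, and each cluster is called by its 2 leading genes. Cluster membership accounted for 56.2% of the variance of ln(CPM+1) of Slc17a8, and for 36.9% when the components came from all genes instead of 2000 variable ones. The Piezo2 and Pter cluster held all 8 markers fixed for the MR-4 type of the study in at least 50% of its cells and is MR-4-like, and the Tacr3 and Tecrl cluster held 8 of 9 markers of the caudal DR type and is cDR-like. The others keep the names of their leading genes, though several held markers of a study type in as many cells. The Npas1 and Nell1 cluster held 3 of 3 for DR-6, and the Grik1 and Spp1 cluster 5 of 6 for MR-3. Of 5 markers for DR-4 and DR-5, the Crh and Wif1 cluster held 5, and the Npy2r and Sst and the Rorb and Cpne9 clusters 4 each. Of 5 for DR-1 and DR-2, the Prph and Trh and the Sox14 and Arhgdib clusters held 4 each, and the Plpp4 and Smoc2 cluster 3. Of 7 for DR-3, the Plpp4 and Smoc2 and the Prph and Trh clusters held 3 each. The Crh and Wif1 and the Sox14 and Arhgdib clusters held 2 each, with Crh among those of the former.

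Slc17a8 was highest in the Crh and Wif1 cluster, led by the gene of corticotropin releasing hormone. Its 25 cells all held reads, from 183 to 665 CPM, with a mean of 410 CPM over cells. The mean over plates was 355 ± 78.1 CPM (SD, n = 3 plates). Here and below, plate means of a cluster use only plates with at least 3 of its cells. The 23 cells of the cDR-like cluster also all held reads, at 294 ± 31.2 CPM (SD, n = 4 plates). In the Npy2r and Sst cluster, named for a neuropeptide Y receptor and somatostatin, 175 of 176 cells held reads, at 222 ± 34.1 CPM (SD, n = 13 plates). In the Rorb and Cpne9 cluster 99 of 105 did, at 166 ± 67.0 CPM (SD, n = 11 plates). These 4 clusters were thus nearly uniform for the presence of the gene. In each of them at least 93.3% of cells were at 10 CPM or more. The level still varied inside them, with quartiles of 76.6 and 244 CPM in the Rorb and Cpne9 cluster.

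The Plpp4 and Smoc2 cluster was mixed, with 34 of its 72 cells without a read and 20 at 100 CPM or more. Its median was 1.38 CPM beside a plate mean of 118 ± 51.7 CPM (SD, n = 6 plates). The Npas1 and Nell1 cluster had reads in 55 of 98 cells and 41.8 ± 35.9 CPM (SD, n = 12 plates), and it held the highest single cell at 836 CPM. The MR-4-like cluster, with reads in 83 of 111 cells at 37.8 ± 21.9 CPM (SD, n = 11 plates), and the Sostdc1 and Pth2r cluster, with 94 of 127 cells at 25.0 ± 6.82 CPM (SD, n = 11 plates), were low but broadly positive. Only 6 of 111 cells in the former and 3 of 127 in the latter reached 100 CPM.

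Reads were held by a smaller share of cells in the remaining clusters. They were found in 16 of 44 cells of the Grik1 and Spp1 cluster, 27 of 137 cells of the Prph and Trh cluster, 9 of 36 cells of the Sox14 and Arhgdib cluster and 5 of 45 cells of the Rgs5 and Aif1l cluster. The plate means were 35.1 ± 41.2 CPM (SD, n = 8 plates) in the first of these, 32.9 ± 53.8 CPM (SD, n = 9 plates) in the second, 7.83 ± 7.86 CPM (SD, n = 6 plates) in the third and 3.26 ± 6.39 CPM (SD, n = 7 plates) in the last. Each of these clusters had a median of 0. Over cells the mean was 34.1 CPM in the first and 13.9 CPM in the second, beside 32.0 CPM in the MR-4-like cluster. The plate mean of the second weighs plates equally, though its cells were spread unevenly. Its 116 principal DR cells had a mean of 5.27 CPM and its 21 all DR cells one of 61.6 CPM. Of the 11 pairs of neighbours in the order of plate means, 3 differed by more than the larger of the 2 SDs: the cDR-like against the Npy2r and Sst cluster, the Plpp4 and Smoc2 against the Npas1 and Nell1 cluster, and the Sostdc1 and Pth2r against the Sox14 and Arhgdib cluster. The other 8 pairs did not differ beyond their spread.

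**Figure D2:**
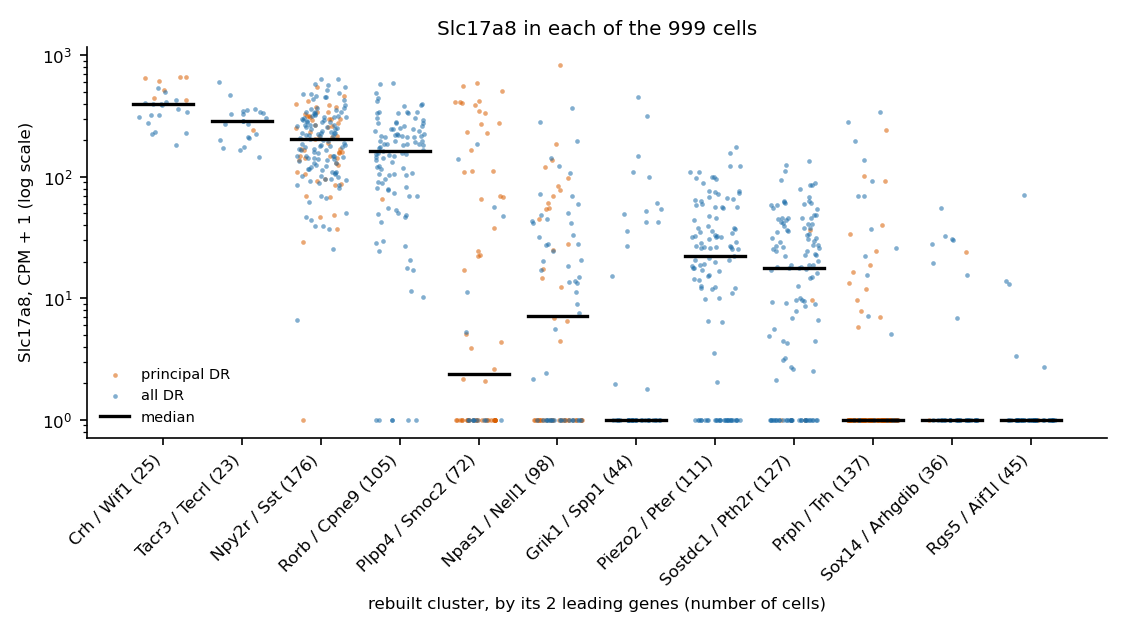
Slc17a8 in each of the 999 cells as CPM + 1 on a log axis, by cluster in falling order of mean level, with cells without a read at 1; orange points are principal DR, blue points all DR, and bars medians. In the first 4 clusters 1 of 176 Npy2r and Sst cells and 6 of 105 Rorb and Cpne9 cells lack a read, whereas the Plpp4 and Smoc2 cluster splits between 34 cells without a read and 20 at 100 CPM or more.

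The clusters were filled unequally by the dissections. The Prph and Trh cluster, with reads in 19.7% of cells, took 116 of its 137 cells from principal DR. In the Npy2r and Sst cluster, which both dissections filled, the mean was 213 CPM in 54 principal DR cells and 227 CPM in 122 all DR cells, and the plate means overlapped. Inside the Prph and Trh cluster, however, 12.1% (6.76 to 19.4) of 116 principal DR cells held a read against 61.9% (38.4 to 81.9) of 21 all DR cells.

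Neither of the other vesicular glutamate transporters occurred beyond single cells. Slc17a7 (chr7:45163949-45176142, 5392 exonic bases) had 0 reads in 999 cells, which allows a share of up to 0.30%. This limit is 3 divided by the number of cells, not the exact interval. Slc17a6 (chr7:51622006-51671119, 5399 exonic bases) had reads in 2 of 999 cells, 0.20% (0.0243 to 0.721), both from all DR. The first cell, on plate SER51 in the Npy2r and Sst cluster, held 18 reads, which is 16.0 CPM, beside 457 CPM of Slc17a8 and 3726 CPM of Tph2. The second cell, on plate SER48 in the MR-4-like cluster, held 10 reads, which is 16.2 CPM, beside 32.3 CPM of Slc17a8 and 12582 CPM of Tph2. Both cells thus held Tph2 and Slc17a8 reads as well. The first had 478 CPM of Slc6a4, the serotonin transporter gene, against a mean of 3759 CPM over all cells, and the second had 3507 CPM of it and reads of 3 of the 10 astrocyte markers. Whether the Slc17a6 reads came from the serotonin neuron itself was not tested. At a minimum of 5 reads or of 10 CPM both cells still counted. In the 290 principal DR cells 0 held Slc17a6, which allows up to 1.03% by the same rule as for Slc17a7.

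Of the other vesicular transporters fixed for comparison, Slc32a1, the GABA and glycine carrier, had reads in 5 cells and Slc18a3, the acetylcholine carrier, in 4. Slc18a2, which loads serotonin and encodes Vmat2, had reads in 998 cells with a mean of 2992 CPM. Per kilobase of exon the mean level of Slc18a2 was 573 CPM and that of Slc17a8 was 20.2 CPM. Vglut3 transcript was thus much the lower of the pair that most of these cells carried together.

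The genes of glutamate supply were found in nearly every cell, with or without Slc17a8. Glud1 (chr14:34310727-34345265) had reads in 994 of 999 cells and a mean of 155 CPM, 36.9 CPM per kilobase of exon. Its plate means were 160, 145, 105, 144 and 148 CPM in principal DR and ran from 137 to 184 CPM with a median of 161 in all DR, where only the lowest principal DR plate lay well outside. Over clusters Glud1 ran from 131 ± 7.69 CPM in the cDR-like cluster (SD, n = 4 plates) to 184 ± 36.4 CPM in the Grik1 and Spp1 cluster (SD, n = 8 plates), and 0 of 11 neighbouring pairs differed by more than the larger SD. Clusters held 3.58% of the variance of its ln(CPM+1).

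Slc38a1 (chr15:96571418-96642913) had reads in 998 of 999 cells and a mean of 289 CPM, 16.8 CPM per kilobase. The plate means were 313, 336, 253, 304 and 289 CPM in principal DR and ran from 230 to 311 CPM with a median of 288 in all DR, and the dissections overlapped. The MR-4-like cluster stood apart, at 180 ± 18.6 CPM (SD, n = 11 plates), below the 283 ± 23.5 CPM (SD, n = 3 plates) of the next lowest, the Crh and Wif1 cluster. This was the 1 neighbouring pair of 11 beyond the larger SD.

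The uptake genes were lower and less even. Slc1a1 (chr19:28835049-28913960) had reads in 913 of 999 cells, 91.4% (89.5 to 93.1), with a mean of 38.0 CPM, 4.60 CPM per kilobase. Its plate means were 38.7, 36.0, 33.7, 33.0 and 27.3 CPM in principal DR and ran from 31.2 to 46.3 CPM with a median of 38.5 in all DR. It ran from 17.8 ± 11.0 CPM in the Prph and Trh cluster (SD, n = 9 plates) to 55.2 ± 8.57 CPM in the Npy2r and Sst cluster (SD, n = 13 plates), though 0 of 11 neighbouring pairs differed beyond the larger SD. A gene on the opposite strand, 4430402I18Rik, shares 2631 of its 8257 exonic bases, and the counting ignored strand, so the level of Slc1a1 is uncertain.

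Slc1a2 (chr2:102658659-102790784) had reads in 571 of 999 cells, 57.2% (54.0 to 60.3), and a mean of 17.9 CPM beside a median of 3.49 CPM, 1.37 CPM per kilobase in the mean. The plate means were 20.9, 18.2, 15.7, 9.18 and 12.0 CPM in principal DR and ran from 9.10 to 51.0 CPM with a median of 16.0 in all DR. The plate at 51.0 CPM, SER55, fell to 29.2 CPM without 1 cell that held 1159 CPM of Slc1a2, 2447 CPM summed over the 10 astrocyte markers and no read of Slc17a8. Slc1a2 was found in 90.1% of the 111 MR-4-like cells, 91.4% of the 105 Rorb and Cpne9 cells, 88.0% of the 25 Crh and Wif1 cells and 75.6% of the 176 Npy2r and Sst cells. The share was 43.5% of the 23 cDR-like cells, 13.9% of 36 Sox14 and Arhgdib cells, 23.6% of 72 Plpp4 and Smoc2 cells and 27.7% of 137 Prph and Trh cells.

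Because Slc1a2 is abundant in astrocytes, its reads were set beside the 10 astrocyte markers. None of the 10 had a mean above 2 CPM, each had reads in 18 to 82 of 999 cells, and 751 cells held no read of any of them. In these 751 cells Slc1a2 was still found in 409, 54.5% (50.8 to 58.1), at a mean of 15.3 CPM, and in the 248 cells with astrocyte reads in 65.3% (59.0 to 71.2) at 25.8 CPM. By cluster the mean without the latter cells was 28.1 CPM in the Npy2r and Sst cluster, 27.2 in Rorb and Cpne9, 28.9 in Crh and Wif1 and 28.2 in the MR-4-like cluster, close to the 31.1, 27.2, 29.2 and 28.2 CPM of all their cells. The Grik1 and Spp1 cluster, which also has Apoe, Mbp and Gja1 among its leading genes, went from 35.9 to 4.80 CPM, and from 35.9 to 9.76 CPM without the single cell at 1159 CPM. The Prph and Trh cluster went from 3.53 to 1.43 CPM and the Plpp4 and Smoc2 cluster from 3.95 to 1.84 CPM, while the Sox14 and Arhgdib cluster went from 2.73 to 3.12 CPM and the Rgs5 and Aif1l cluster from 3.56 to 3.67 CPM.

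**Figure D3:**
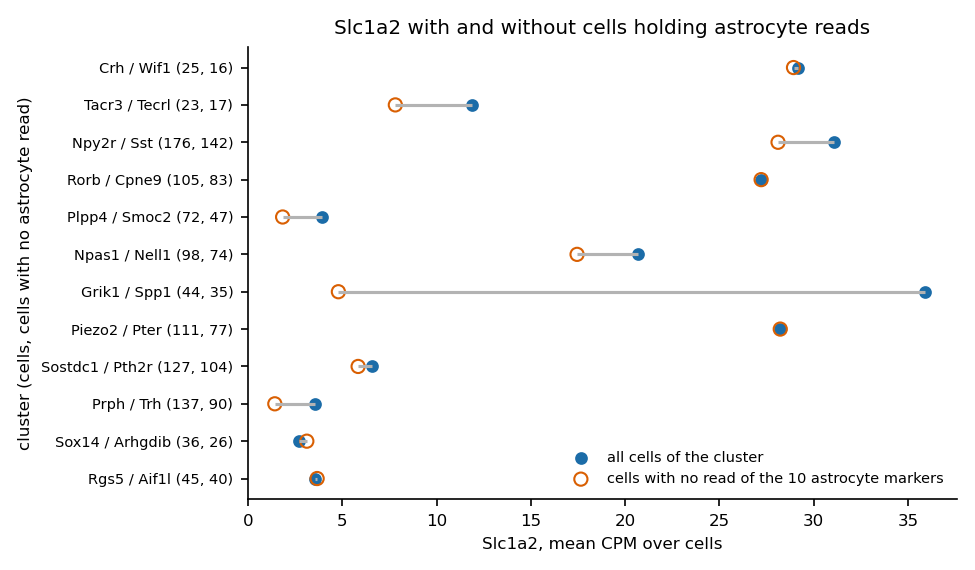
Mean Slc1a2 CPM in each cluster over all its cells (blue) and over cells with no read of the 10 astrocyte markers (orange circles), with both numbers of cells beside the name. The Grik1 and Spp1 cluster moves from 35.9 to 4.80 CPM, and the Npy2r and Sst cluster from 31.1 to 28.1.

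Whether these genes follow Slc17a8 was measured inside each of the 16 plates, as Pearson's r of ln(CPM+1) over the cells of a plate; cells of a plate share its preparation and sequencing, and the r are descriptions. Slc1a2 had a median r of 0.32 and an r above 0 on 16 of 16 plates, which 0.983% of the genes that varied on every plate shared. Of 11517 genes with a mean over 2 CPM, 69 had a median r of at least 0.3, 0.599%, and 34 one of at most -0.3, 0.295%. On principal DR plates alone 154 and 156 genes did so. Slc1a2 was the 1 of 4 members compared that passed, at place 49 from the top. The plates fell into 8 with an r from 0.40 to 0.50, of which 4 were principal DR, and 8 from 0.069 to 0.24, so the median sits between them. It became 0.24 without any of the 8 higher plates (SER12, SER13, SER25, SER40, SER55, SER57, SER64 or SER67), and it was 0.47 over principal DR plates alone and 0.21 over all DR plates alone.

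The other members did not reach 0.3. Slc1a1 had a median r of 0.19 with 13 of 16 plates above 0, all 5 principal DR plates among them, and stood at place 284 of 11517. Slc38a1 had 0.0049 with 10 plates above 0. Glud1 had -0.095 with 5 plates above 0, from -0.43 to 0.17. The median over all 11517 genes was 0.024, so Slc38a1 lay near it, while Glud1 stood at place 10883 of 11517 from the top.

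Cells with at least 10 CPM of Slc17a8 were also compared with cells without a read on each plate, on the scale of log2 of mean CPM plus 1; 592 cells were in the former set, 350 in the latter, and the 57 between were left out. Slc1a2 was higher on 14 of 16 plates, with a median log2 ratio of 1.22 (from -1.31 to 3.31), and over all cells its mean was 22.3 CPM in the cells with Slc17a8 and 11.5 CPM in those without. The lowest ratio, -1.31, was that of plate SER55, where the cell with 1159 CPM was 1 of 14 cells without Slc17a8. Without this cell the mean of those cells went from 91.2 to 9.09 CPM, the ratio on that plate became 1.88, and the median over plates became 1.36. The other plate under 0 was SER56, at -0.88, with 16 cells against 10. Among cells with no astrocyte read, the means were 20.5 CPM in 455 cells and 6.65 CPM in 252 cells. A median ratio of at least 1 was reached by 0.712% of the genes compared, and one of at most -1 by 0.547%. Slc1a1 was at 0.42 with 10 of 16 plates above 0, Glud1 at -0.036 with 6, and Slc38a1 at -0.055 with 2. On this scale the 2 supply genes had nearly the same level in cells with and without Slc17a8, at 152 against 159 CPM for Glud1 and 283 against 302 CPM for Slc38a1.

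The correlation of Slc1a2 with Slc17a8 was not seen once the differences between clusters were removed. After the mean of each cluster on each plate was subtracted, its median r was -0.0089, with 8 of 16 plates above 0, in the 936 cells of clusters with at least 3 cells on a plate. The log2 ratio inside a cluster on a plate could be had in 5 cases only, and for Slc1a2 it had a median of 0.66, from -2.40 to 1.87, with 3 of 5 above 0. By r, Slc1a1 then had 0.052, Glud1 0.0036 and Slc38a1 0.014. No gene of the 11517 kept a median r of at least 0.3 or at most -0.3, a share of 0%. Over the 12 clusters the means over cells of Slc17a8 and Slc1a2 had a Spearman correlation of 0.63. Those of Slc17a8 and Slc1a1 had 0.30, Glud1 -0.38 and Slc38a1 -0.098, as descriptions over clusters that share plates. By means over cells the Grik1 and Spp1 cluster was highest for Slc1a2, at 35.9 CPM, but had 9.76 CPM without the cell at 1159 CPM. The correlation without this cell was not computed. By means of plate means, the MR-4-like cluster went against the first relation, with 22.5 ± 8.32 CPM of Slc1a2 (SD, n = 11 plates) beside little Slc17a8. So did the Plpp4 and Smoc2 cluster, with 4.95 ± 5.70 CPM (SD, n = 6 plates) of Slc1a2 beside 118 CPM of Slc17a8. In that cluster, however, 34 of 72 cells held no read of Slc17a8. On that measure the cDR-like cluster was second for Slc17a8 and sixth for Slc1a2, at 11.8 ± 6.61 CPM (SD, n = 4 plates).

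**Figure D4:**
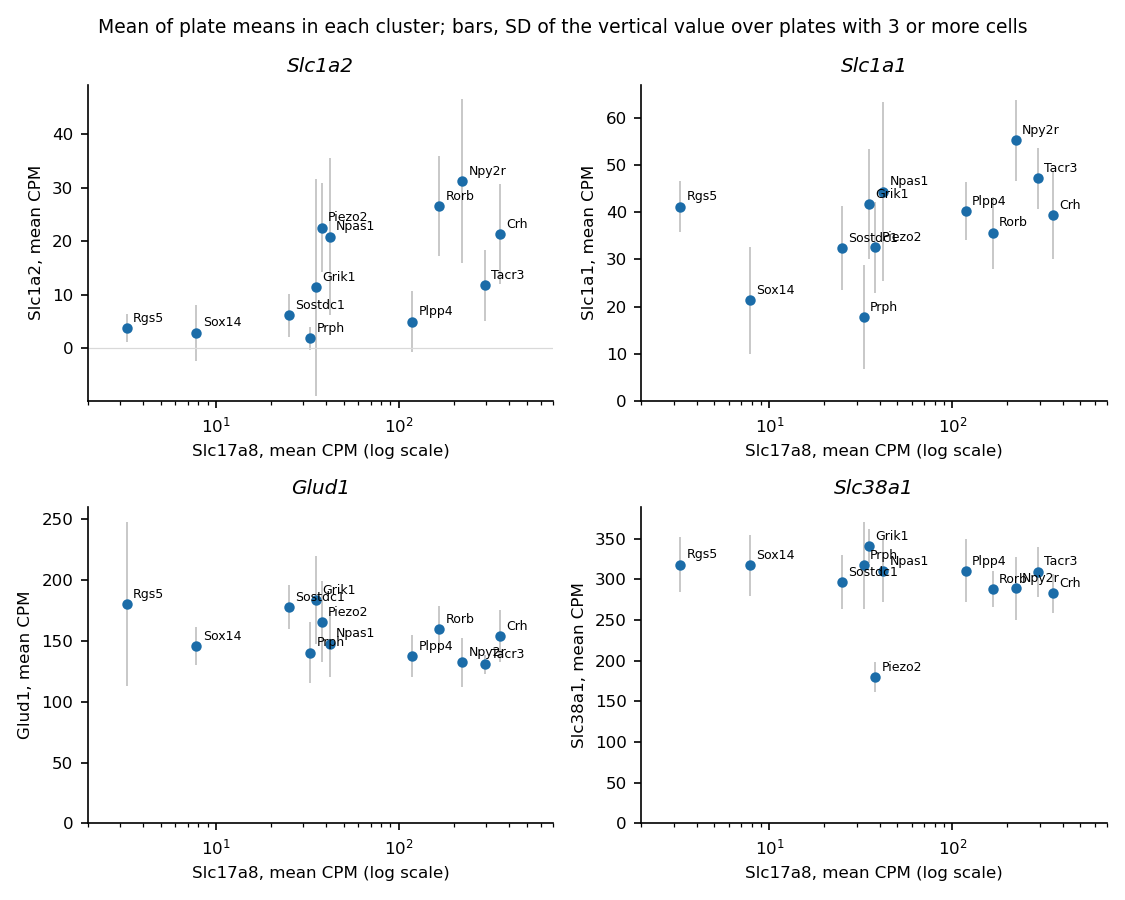
Mean CPM of Slc1a2, Slc1a1, Glud1 and Slc38a1 against mean CPM of Slc17a8 (log axis) in the 12 clusters, named by their first leading gene; points are means of plate means and bars the SD over plates with at least 3 cells of the cluster. The MR-4-like Piezo2 cluster has 22.5 CPM of Slc1a2 at low Slc17a8 and the lowest Slc38a1, 180 CPM.

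Of the wider list of 20 glutamate supply genes, 14 had a mean over 2 CPM, and 0 of the 14 passed in either direction, beside 0.599% and 0.295% of all genes. Their median r ran from -0.12 for Gls2, a glutaminase, to 0.14 for Slc25a22, a mitochondrial glutamate carrier, with a list median of 0.021. The aspartate aminotransferases Got1 and Got2 had means of 480 and 214 CPM and median r of 0.045 and 0.11. The 6 members of the list at or under 2 CPM were Slc38a3, Slc25a13, Slc25a18, Prodh, Gpt and Slc7a11. Of the 8 uptake genes 5 were compared and Slc1a2 alone passed. Arl6ip5, whose product binds EAAC1, came next with 0.24 and 13 of 16 plates above 0, ahead of Slc1a6 at 0.026 and Slc1a4 at -0.079. Slc1a3, the other main astrocyte carrier, had reads in 46 of 999 cells.

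1 gene of the GABA route and 2 serotonin genes had a median r of at most -0.3. Gad2, which makes GABA from glutamate, had a median r of -0.40 and was under 0 on 16 of 16 plates, and 19.4% (16.4 to 22.7) of 649 cells with Slc17a8 held it against 58.3% (52.9 to 63.5) of 350 cells without. It was the 1 of 6 GABA route genes compared that passed the threshold, beside 0.295% of all genes. Gad1, which an antisense gene overlaps, had -0.21, Slc6a11 -0.021, Abat -0.0027 and Aldh5a1 0.061. By the log2 ratio used above, 3 of the 6 were at -1 or under, beside 0.547% of all genes. Gad2 had -1.73, and Gad1 -1.68 with 5 of 16 plates above 0. The mean of Gad1 was 21.7 CPM in cells with at least 10 CPM of Slc17a8 and 105 CPM in cells without a read. Slc17a8 and Gad2 were not fully separate. In the Plpp4 and Smoc2 cluster 26 of 72 cells held both, 12 held Slc17a8 alone and 32 Gad2 alone. Slc18a2 had a median r of -0.36 with 13 of 16 plates under 0, and its mean was 2767 CPM in cells with at least 10 CPM of Slc17a8 and 3339 CPM in cells without a read. Gch1, which makes the cofactor of serotonin synthesis, had -0.31 with 12 of 16 plates under 0. Slc18a2 and Gch1 were 2 of 8 serotonin neuron genes, beside 0.295% of all genes. Fev, the transcription factor Pet1, had -0.25, short of the threshold but under 0 on 16 of 16 plates, and Tph2 had 0.18. Within clusters Gad2 had -0.15, Slc18a2 -0.052 and Gch1 -0.032.

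**Figure D5:**
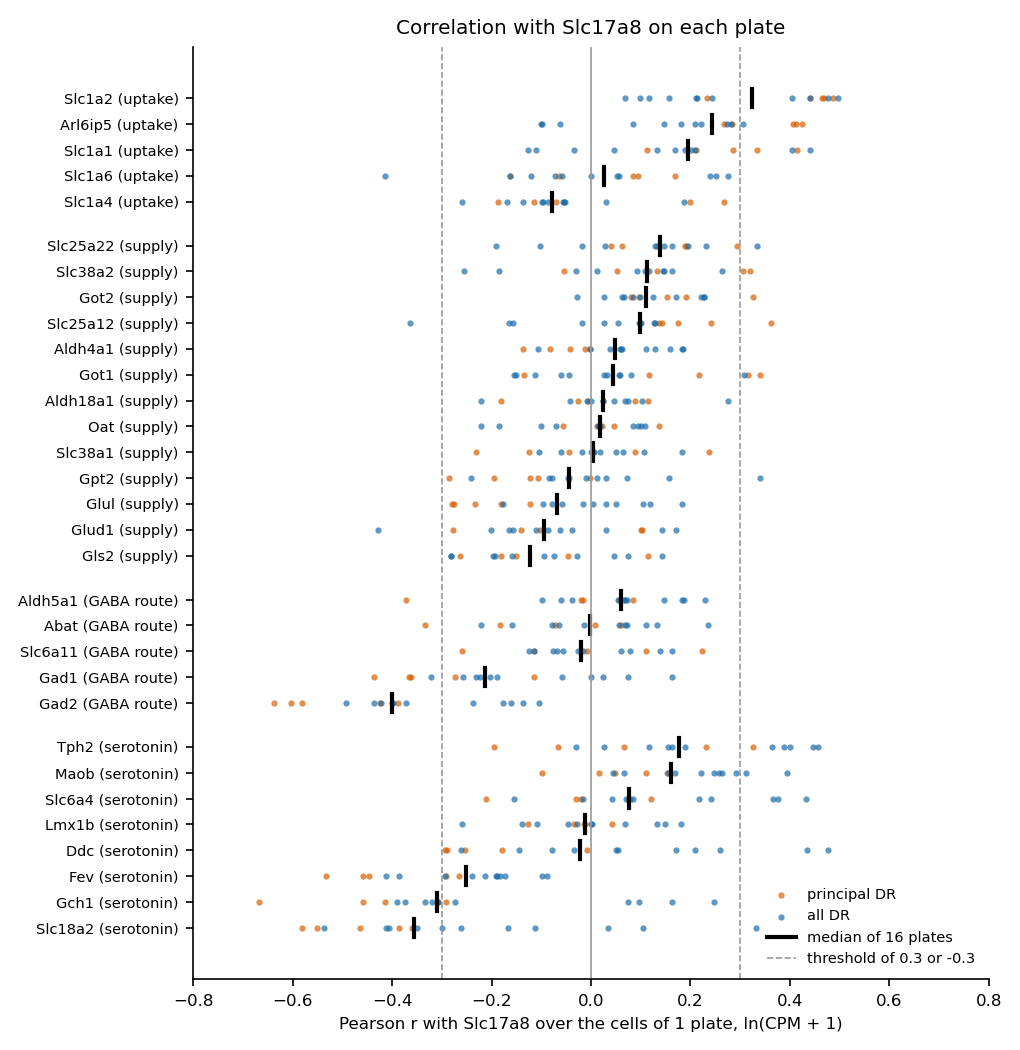
Pearson's r with Slc17a8 on each of the 16 plates for genes of the uptake, supply, GABA route and serotonin lists with a mean over 2 CPM, not all of which are shown; points are plates by dissection, black bars medians and dashed lines 0.3 and -0.3. All points of Slc1a2 lie above 0 and all of Gad2 below, and the bars of the supply genes lie between -0.12 and 0.14.

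The 10 genes most like Slc17a8 by median within-plate r over the 16 plates were led by Htr5b, a serotonin receptor gene, at 0.60, and Crhr2, a receptor of the corticotropin releasing hormone family, at 0.53. They were followed by Mgll, whose product breaks down an endocannabinoid, at 0.50, Plcb1 at 0.48, Lpar1 at 0.47, Slit2 and Sox1 at 0.45, Cited1 at 0.44, Npy2r at 0.43 and Nefl, a neurofilament gene, at 0.42. All 10 lay at 0.04 to 0.16 within clusters. Htr5b had a mean of 48.8 CPM in cells with at least 10 CPM of Slc17a8 and 7.60 CPM in cells without a read, and Crhr2 38.4 and 5.34 CPM. The 5 lowest were Fam19a2 and Prkcq at -0.48, Nxph4 at -0.47, and Hs3st4 and Arhgap36 at -0.46, and Fam19a2 had 7.30 CPM in the former cells and 56.7 CPM in the latter.

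Slc17a8 was read beside depth as well. The r of its ln(CPM+1) with log reads had a median of 0.059 over plates, from -0.31 to 0.44, and that with the number of detected genes a median of 0.19, from -0.11 to 0.63, and was above 0 on 13 of 16 plates. With both removed on each plate, Slc1a2 had a median r of 0.30 and Slc1a1 one of 0.18, and with every cell thinned to 250000 reads, which left 990 cells, they were 0.36 and 0.18. Of the other marker lists, astrocyte reads were found in 23.1% of cells with at least 10 CPM of Slc17a8 and 28.0% of those without, endothelial reads in 4.90% and 12.6%, oligodendrocyte reads in 81.9% and 80.9%, and microglia reads in 11.0% and 9.43%. The summed oligodendrocyte markers reached 1375 CPM in the former cells and 78043 CPM in the latter. The part of the last 3 cell types in the values above was not tested.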

How the data were processed

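Single cells were sorted by the authors from Sert-Cre;Ai14 mice and sequenced as Smart-seq2 libraries. Per the labels and the study's methods, the authors made the base calls with bcl2fastq 2.19.0.316, aligned to mm10 with STAR 2.6.1a, counted reads on genes with HTSeq 0.11.2 without regard to strand, removed chromosome Y genes, and deposited CPM (each count scaled by the cell's total on genes) for 999 cells, after leaving out cells with few genes or reads. The annotation version is not given in the sources used here. The other 537 of 1536 labelled cells were not analysed here. In the deposited CPM, 100% of values above 0 were whole multiples of 1 read within 0.001, so reads were recovered; no count model was fitted, since a dissection is 1 sample.

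A gene was called present with 1 read. Clusters were made with Seurat 5.3.0 in R 4.3.3 from ln(CPM+1) of 2000 variable genes, with 78 listed genes held out, 20 components, 20 neighbours, resolution 1 and seed 1; no doublet caller was run on these singly sorted cells. Correlations and ratios were computed on 16 plates with at least 20 cells for genes whose mean exceeded 2 CPM, with a threshold of 0.3 on the median r and a pseudocount of 1, and ratios needed 5 cells of each kind. Work was done in Python 3.11.15 with NumPy 2.4.6 and SciPy 1.17.1, and the correlation step was tested on simulated data. Coordinates, exon lengths and overlaps are from GENCODE M21 (GRCm38, the assembly of mm10), and promoter sequences are from RefSeq.

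The members and lists were chosen with earlier results of these data known. Genes named are the members, list genes past the threshold, the 10 highest and 5 lowest genes by median r, and leading genes of clusters (mean over 20 CPM in the cluster). Other list genes with values, and other leading genes, were chosen as examples after their values were seen. The clusters were rebuilt here and may differ from the study's cell types. Alternatives changed the call of a present gene, the cells, the clustering, the correlation measure, the pseudocount and the plates. Leaving out cells with astrocyte reads, or the cell highest in Slc1a2, was added after seeing the data. The values of some list genes are not reported here.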

Additional observations from a re-analysis of the deposited data

Results flagged for a closer look

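Among the 5 principal DR plates, 13 sets of plate values were looked at for a plate far from the others, and chance marks about 1 set in 20. Glud1 was lowest on plate SER25, at 104.9 CPM, while the other 4 plates lay between 144 and 160 CPM, and this gap took up 0.712 of the range beside a critical value of 0.71. The r of Slc1a2 with Slc17a8 was lowest on plate SER39, at 0.233, while the other 4 plates lay between 0.44 and 0.49, a gap of 0.819 of the range. Plate SER39 held 28 cells, the fewest of the 5. What sets these plates apart was not tested.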

How the results depend on the processing

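Of 569 values recomputed under alternatives for 32 results, 546 stayed within set limits and 23 did not. The limits were the counting interval for shares and the SD over plates for levels, r and ratios. A value past its threshold also had to keep its direction. Numbers of genes or clusters and the variance share had a limit on fold change. Most of the 569 left out 1 plate, a small change. A value within its limit could still cross 0.3, as the r of Slc1a2 did at 0.24. Counting a cell only from 5 reads lowered the share with Slc17a8 to 61.0% of all cells and 69.0% of all DR, and from 10 CPM to 59.3% and 67.0%. The mean of 95.4 CPM became 25.8 CPM as a median over cells. The difference between dissections turned to -0.557 CPM with plates weighted equally. Components from all genes put the highest cluster mean at 288 in place of 410 CPM and the variance between clusters at 36.9%. With cluster means removed, the r of Slc1a2 turned to -0.0089 and the genes past 0.3 and -0.3 fell from 69 and 34 to 0 and 0. Principal DR plates alone gave 154 and 156 such genes, and Spearman's measure gave 52 at the lower end. Inside clusters on a plate, the ratio for Slc1a2 could be had in 5 cases only, at a median of 0.66 with 3 of 5 above 0. With each plate left out, the share with Slc17a8 lay between 64.0% and 67.2%, the difference between dissections between 0.932 and 22.2 CPM, the r of Slc1a2 between 0.24 and 0.40, its ratio between 1.11 and 1.33, and the genes past 0.3 between 60 and 76 and those past -0.3 between 30 and 40. No paired analysis was possible because no test was made and plates are not shared between dissections. Depth limits what a cell without a read can show: thinned to 250000 reads, Slc1a2 was found in 51.7% of cells in place of 57.2%, and Slc1a1 in 89.0% in place of 91.4%.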
